A study of Mus musculus with 6 samples.

Results

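The Bcl2 family genes that set the threshold for mitochondrial cell death were examined in pressure-loaded mouse hearts with and without an adenosine A2a receptor transgene. The genes listed were Bcl2, Bcl2l1, Bcl2l11, Mcl1, Bax, Bak1, Bid, Bad, Bnip3 and Bnip3l, and a gene was followed through the array rows annotated with its symbol alone, taking the row of highest mean over the 6 arrays where it had more than 1. Of the 10 genes, 9 were measured in this way, among 19938 genes with such a row, and Bax was not analysed here. The transgenic group held 3 male A2a-R transgenic (TG) mice, in which the receptor was over-expressed in the heart in an inducible manner, and the wild-type group 3 male littermates of the FVB strain. Both groups underwent transverse aortic constriction (TAC), a surgical narrowing of the aorta that loads the left ventricle with pressure, when 8 weeks old, and the hearts were taken after 14 weeks. No source used here gives the promoter or the inducing agent of the transgene, or says whether littermates received that agent. Each heart was measured on 1 Affymetrix Mouse Gene 1.0 ST array, so n = 3 hearts per group. Unoperated hearts were not analysed here, and the level of the A2a receptor transcript itself, which would check the labels, was not analysed here either.

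Proteins of the Bcl2 family meet at the outer membrane of the mitochondrion. Bcl2, Bcl-xL (from Bcl2l1) and Mcl1 hold the pore-forming effectors Bax and Bak (from Bak1) in check, while the BH3-only proteins Bim (from Bcl2l11), Bid and Bad sense stress or kinase signals and push the balance towards pore opening, cytochrome c release and caspase activation. Bnip3 and Nix (from Bnip3l) are mitochondrial relatives best known as receptors that mark mitochondria for autophagy, and Bnip3 is a target of the hypoxia-inducible factor. In the heart, whose muscle cells are scarcely replaced, these proteins bear on how many cells survive overload. All levels are log2 values made by the authors with RMA, so a difference of 1 is a doubling, and levels of different rows are not comparable with each other.

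The stretches before the annotated starts of Bcl2 and Bnip3 are shown because Bcl2 was the family gene called lower in TG hearts and Bnip3 is the hypoxia target of the family. They are RefSeq sequences of build GRCm38.p6, read 5′ to 3′ on the minus strand and ending at the base before the start, with a searched motif in capitals. The Bcl2 stretch is chr1:106714291-106714540 and the Bnip3 stretch is chr7:138909507-138909756.
Bcl2: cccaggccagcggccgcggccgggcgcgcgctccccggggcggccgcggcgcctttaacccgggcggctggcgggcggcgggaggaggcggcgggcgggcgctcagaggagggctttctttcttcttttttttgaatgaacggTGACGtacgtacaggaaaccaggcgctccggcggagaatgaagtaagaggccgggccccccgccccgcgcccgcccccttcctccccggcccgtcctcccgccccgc
Bnip3: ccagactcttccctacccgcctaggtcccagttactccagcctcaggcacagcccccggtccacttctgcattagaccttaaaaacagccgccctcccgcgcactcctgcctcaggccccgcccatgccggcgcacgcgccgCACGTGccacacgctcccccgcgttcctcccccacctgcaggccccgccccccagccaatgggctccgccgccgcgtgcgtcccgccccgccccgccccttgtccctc
Both strands of the 250 bases were searched for TGACG, the short core of the cyclic AMP response element, for the full element TGACGTCA, which contains that core, and for ACGTG, the core of the hypoxia response element. The Bcl2 stretch held TGACG at positions -107 to -103 from the start, and the letters occurred in 17.8% of 32851 promoters of that length. The Bnip3 stretch held ACGTG on both strands in overlap, together spanning positions -108 to -103, and these letters occurred in 16.6% of promoters. Promoters were given for 8 of the 9 measured genes, in 12 windows; none of the 12 held the full element, which 1.55% of all promoters held, and TGACG and ACGTG were found in no window other than those printed. Such a match is a description of letters, not of a binding site.

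Bcl2 was the family gene that differed most. Its log2 value was 8.56, 8.64 and 8.60 in the 3 TG hearts, against 9.72, 9.30 and 9.15 in the 3 wild-type hearts. The TG hearts lay within 0.08 of each other and below every wild-type heart, whereas the wild-type hearts spread over 0.57 with replicate 1 on top. Bcl2 thus averaged 8.60 ± 0.04 in TG and 9.39 ± 0.30 in wild-type hearts (SD, n = 3 each), a log2 difference of -0.79 ± 0.13 (SE), or 1.73-fold lower, with a 95% interval of -1.09 to -0.49. In limma across 21789 rows the adjusted p was 0.0373, so Bcl2 passed as lower in TG than in wild-type hearts. Of the 9 genes it was the only one to pass in that fit, beside a background of 0.959% of all rows called in either direction with 0.441% called lower and 0.519% called higher. This result was known when the family was chosen and is given as a description. By size it was the 24th largest difference towards lower TG values among the tested rows, and by p-value it stood at rank 177. Its single row (10357043) is annotated with both RefSeq transcripts of the gene, which encode 2 forms of the protein, and does not separate them.

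The Bcl2 difference kept its direction whichever heart was left out, but its call did not hold in every fit. Without wild-type replicate 1, the highest heart, it was -0.625 ± 0.07 (SE) with a limma adjusted p of 0.0274, and without wild-type replicate 3 it was -0.91 with 0.0378. The limma adjusted p was 0.111 without wild-type replicate 2, and 0.0997, 0.0925 and 0.117 without TG replicates 1, 2 and 3, at differences of -0.84, -0.77, -0.81 and -0.79. It was 0.0619 when every row of the table was tested. In whole hearts, fewer cells of a type and less RNA per cell cannot be told apart.

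**Figure D1:**
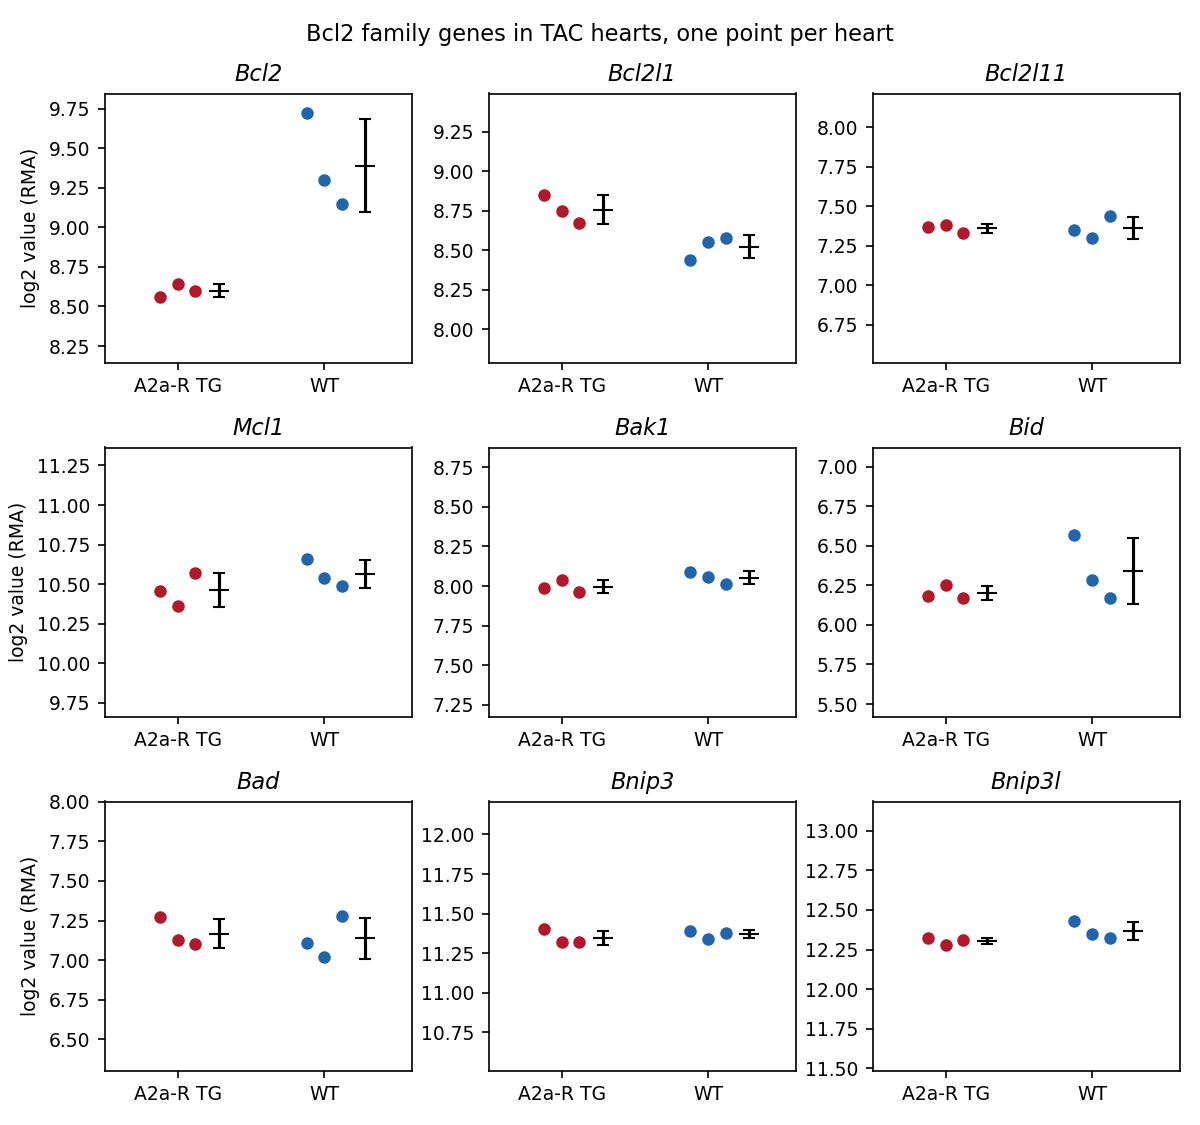
Log2 values (RMA) of the 9 measured Bcl2 family genes in each A2a-R TG heart (red, left) and each wild-type heart (blue, right); bars beside the points give the mean and SD (n = 3), and every panel spans the same log2 range. Bcl2 is at 8.56 to 8.64 in TG hearts and at 9.15 to 9.72 in wild-type hearts, while the groups of most other genes overlap.

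The other pro-survival genes did not pass. Bcl2l1, whose main product Bcl-xL does the same work as Bcl2 at the mitochondrion, had 8.85, 8.75 and 8.67 in TG hearts and 8.44, 8.55 and 8.58 in wild-type hearts. Every TG heart was above every wild-type heart, so the groups were apart in the direction opposite to Bcl2. The log2 difference was 0.23 ± 0.07 (SE), or 1.18-fold, with a 95% interval of 0.07 to 0.39 and a limma adjusted p of 0.186. Its row (10488655) does not separate Bcl-xL from the short splice form Bcl-xS, which promotes death. Mcl1, a short-lived survival protein that heart muscle depends on, had 10.46, 10.36 and 10.57 in TG hearts and 10.66, 10.54 and 10.49 in wild-type hearts. These overlap, and the difference of -0.10 ± 0.08 had an interval of -0.27 to 0.07 (limma adjusted p = 0.60).

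Bcl2 and Bcl2l1 were also set side by side within each heart, each as its deviation from its own 6-heart mean. Bcl2 was below its mean and Bcl2l1 above its mean in all 3 TG hearts, and the reverse held in all 3 wild-type hearts. These signs largely follow from the groups being apart in opposite directions for both genes, so they are no separate result. Bcl2l1 itself was not called. The Bcl2 deviation minus the Bcl2l1 deviation was -0.64, -0.46 and -0.43 in the TG hearts, against 0.93, 0.39 and 0.21 in the wild-type hearts. The means of this balance were 1.02 log2 units apart (TG minus wild type -1.02), the sum of the lower Bcl2 and the opposite difference of Bcl2l1. Wild-type replicate 1 held both the highest Bcl2 value and the lowest Bcl2l1 value.

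**Figure D2:**
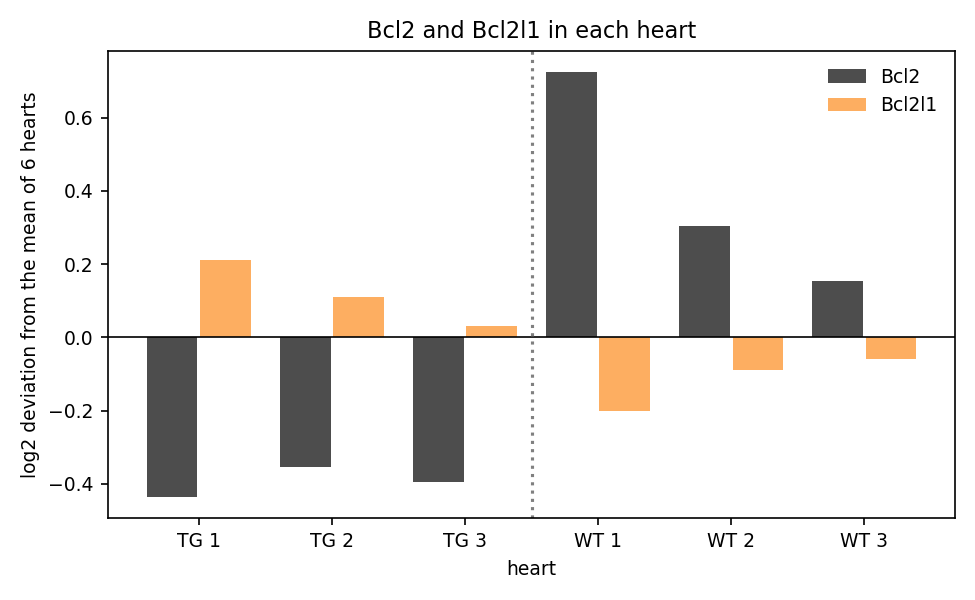
Deviation of Bcl2 (grey) and Bcl2l1 (orange) from their own mean over 6 hearts, in log2 units, for each TG heart (left of the dotted line) and each wild-type heart (right). The bars of the pair point in opposite directions in each of the 6 hearts, which largely follows from the group differences of the genes. Those of Bcl2 are longer, from 0.155 to 0.725 above the mean in wild-type hearts.

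The effector Bak1, which opens the outer mitochondrial membrane when activated, had 7.99, 8.04 and 7.96 in TG hearts and 8.09, 8.06 and 8.01 in wild-type hearts. The groups overlap, with a difference of -0.06 ± 0.06 (SE) and an interval of -0.19 to 0.07 (limma adjusted p = 0.704).

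The BH3-only genes did not pass either. Bcl2l11, which encodes Bim, had 7.37, 7.38 and 7.33 in TG hearts and 7.35, 7.30 and 7.44 in wild-type hearts. The means were 7.36 ± 0.03 in TG and 7.36 ± 0.07 in wild-type hearts (SD, n = 3 each), and the 95% interval of the difference ran from -0.14 to 0.13. Bid, the BH3-only protein that caspase-8 cleaves, had 6.18, 6.25 and 6.17 in TG hearts and 6.57, 6.28 and 6.17 in wild-type hearts. Wild-type replicate 1 again stood above the rest, and the difference of -0.14 ± 0.10 (SE) was -0.025 without it. Bad, whose binding to Bcl-xL is switched off by phosphorylation, had 7.27, 7.13 and 7.10 in TG hearts and 7.11, 7.02 and 7.28 in wild-type hearts. These overlap throughout, at a difference of 0.03 ± 0.08 with an interval of -0.16 to 0.22 (limma adjusted p = 0.909).

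The mitophagy receptors Bnip3 and Bnip3l each had 2 rows, and none of the 4 rows passed. The brighter Bnip3 row (10414269) had 11.40, 11.32 and 11.32 in TG hearts and 11.39, 11.34 and 11.38 in wild-type hearts, which overlap. Its difference was -0.02 ± 0.06 (SE), with an interval of -0.15 to 0.10, and the other row (10568785) gave -0.04 ± 0.07. The brighter Bnip3l row (10394800) had 12.32, 12.28 and 12.31 in TG hearts and 12.43, 12.35 and 12.32 in wild-type hearts. Its highest TG value equals its lowest wild-type value, and the difference was -0.06 ± 0.06, with an interval of -0.19 to 0.07. In the other Bnip3l row (10421003) the values were 11.51, 11.45 and 11.51 in TG hearts and 11.66, 11.56 and 11.53 in wild-type hearts, a difference of -0.09 ± 0.06 (limma adjusted p = 0.522). All TG hearts were below the wild-type hearts in that row, as in 12.6% of all rows. RefSeq also lists a pseudogene, Bnip3l-ps, on chromosome 12, and which copy each row was designed on is not given. The 2 Bnip3l rows may therefore share or split signal of near-identical copies. For Bnip3 no such copy was listed, and the locus of each row is likewise not given.

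**Figure D3:**
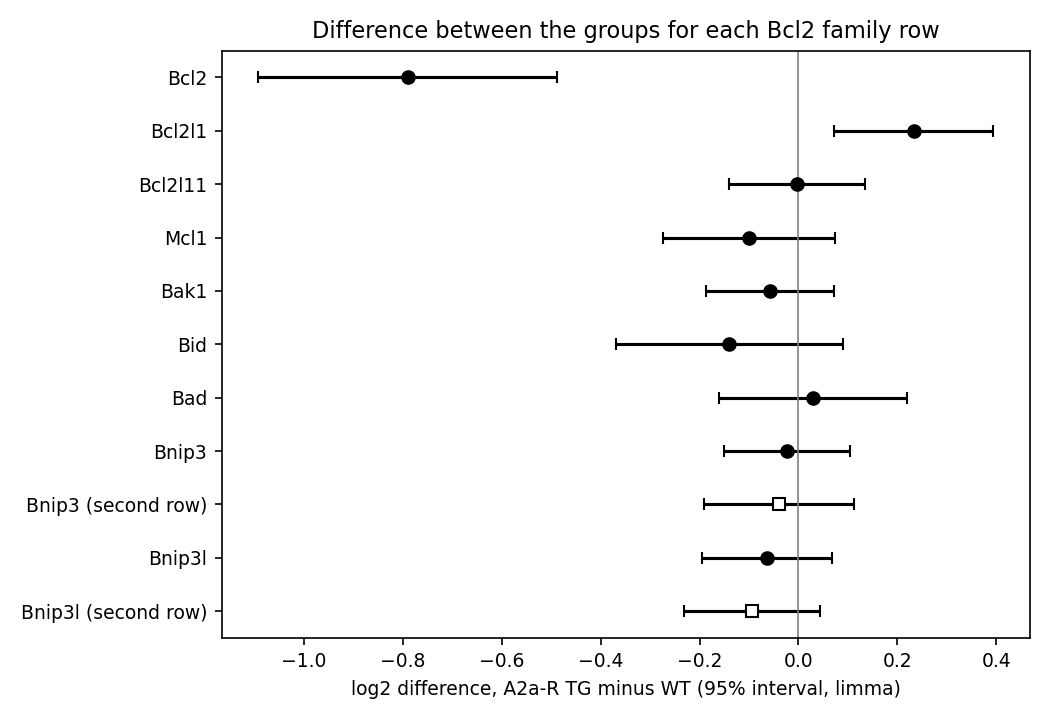
Log2 difference of A2a-R TG minus wild-type hearts with its 95% interval from limma, for the 11 rows of the 9 genes; open squares are the dimmer rows of Bnip3 and Bnip3l. Bcl2 at -0.79 lies left of zero and Bcl2l1 at 0.23 right of it, and the intervals of the other 9 rows include zero.

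As a family, 7 of the 9 genes had a lower and 2 a higher mean in TG hearts, with Bcl2l11 turning to higher when arrays were centred on their medians or quantile-normalised again. The median log2 difference over the 9 was -0.06, beside -0.01 over all tested rows. The groups were apart for 2 of the 9, Bcl2 below and Bcl2l1 above, beside 20.3% of all rows apart in either direction, 12.6% with TG below and 7.73% with TG above. An unadjusted p below 0.05 was also reached by 2 of the 9, beside 14.8% of all rows. Within groups the hearts spread least for Bnip3l in TG hearts (SD 0.021) and most for Bcl2 in wild-type hearts (SD 0.295).

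Around the family, 79 of 90 further genes of cell death, mitochondria and their regulation had a row of their own. Of these 79 genes 0 passed in limma, beside 0.959% of all rows called. An unadjusted p below 0.05 was reached by 15, which is 19.0%, beside 14.8% of all rows. The groups were apart for 20, which is 25.3%, beside 20.3% of all rows. The median difference of the 79 genes was -0.02, with 47 lower and 32 higher.

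The remaining Bcl2 relatives and BH3-only genes, 14 of 17 with a row, had a median difference of -0.03, with 9 lower and 5 higher. Bcl2l2, which encodes the pro-survival protein Bcl-w, had 7.29, 7.20 and 7.33 in TG hearts and 7.47, 7.35 and 7.51 in wild-type hearts. All TG hearts were below the wild-type hearts, by -0.17 ± 0.07 (SE, limma adjusted p = 0.296). Bcl2l10, a further relative, was at -0.23 ± 0.11 (limma adjusted p = 0.391). The p53-inducible killers Bbc3 (Puma) and Pmaip1 (Noxa) differed by 0.09 ± 0.07 and -0.01 ± 0.10.

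Downstream of the mitochondrion, 18 of 20 genes of the apoptosome, the caspases and their inhibitors were measured, with a median of -0.01. Casp12, a caspase of the endoplasmic reticulum in the mouse, had 8.32, 8.21 and 8.48 in TG hearts and 8.65, 8.77 and 8.59 in wild-type hearts. The groups were apart, at -0.33 ± 0.08 (SE), but the limma adjusted p was 0.129. Xiap, which binds and blocks caspases, was at -0.17 ± 0.06 (limma adjusted p = 0.261). Of 8 death receptor and adaptor genes 7 were measured, with a median of -0.02, and the Trail receptor gene Tnfrsf10b and Fas were at -0.23 ± 0.11 and 0.18 ± 0.10.

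At the mitochondrion, the 12 genes of channels, fission and fusion had a median of 0.01. Slc25a5, an ADP/ATP carrier of the inner membrane, was at 0.13 ± 0.05 (SE) and Ppif, which encodes the pore regulator cyclophilin D, at -0.17 ± 0.07 (limma adjusted p = 0.303 and 0.323). Of 14 autophagy and mitophagy genes 12 were measured, with a median of -0.02. Map1lc3a, which encodes a form of the autophagosome protein LC3, had 10.97, 11.10 and 10.89 in TG hearts and 10.41, 10.58 and 10.69 in wild-type hearts. All TG hearts were above the wild-type hearts, at 0.43 ± 0.09, with a limma adjusted p of 0.0785. Atg5, needed to extend the autophagosome membrane, was at -0.15 ± 0.06 (limma adjusted p = 0.279).

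Among regulators upstream of the family, 16 of 19 were measured, with a median of -0.05, 11 lower and 5 higher. An unadjusted p below 0.05 was reached by 8, of which 5 were lower and 3 higher, beside 14.8% of all rows. Hif1a, the oxygen-regulated subunit of the hypoxia-inducible factor, had 9.61, 9.56 and 9.56 in TG hearts and 10.12, 9.88 and 9.78 in wild-type hearts. The groups were apart and wild-type replicate 1 was highest, as for Bcl2, at -0.35 ± 0.09 (SE, limma adjusted p = 0.129). Bag3, a co-chaperone that binds Bcl2, was at -0.19 ± 0.05 (limma adjusted p = 0.18). Creb1, which encodes a factor that binds cyclic AMP response elements, had 8.56, 8.52 and 8.40 in TG hearts and 8.70, 8.72 and 8.60 in wild-type hearts. All TG values were below the wild-type values, at -0.18 ± 0.07 (limma adjusted p = 0.269). Bag1 and Rela, also with all TG hearts below the wild-type hearts, were at -0.18 ± 0.06 and -0.14 ± 0.06 (limma adjusted p = 0.207 and 0.30). In the other direction, with all TG hearts above the wild-type hearts, the survival kinase genes Pim3 and Akt2 were at 0.26 ± 0.08 and 0.18 ± 0.07, and the transcription factor gene Stat3 at 0.16 ± 0.06 (limma adjusted p = 0.216, 0.269 and 0.266).

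**Figure D4:**
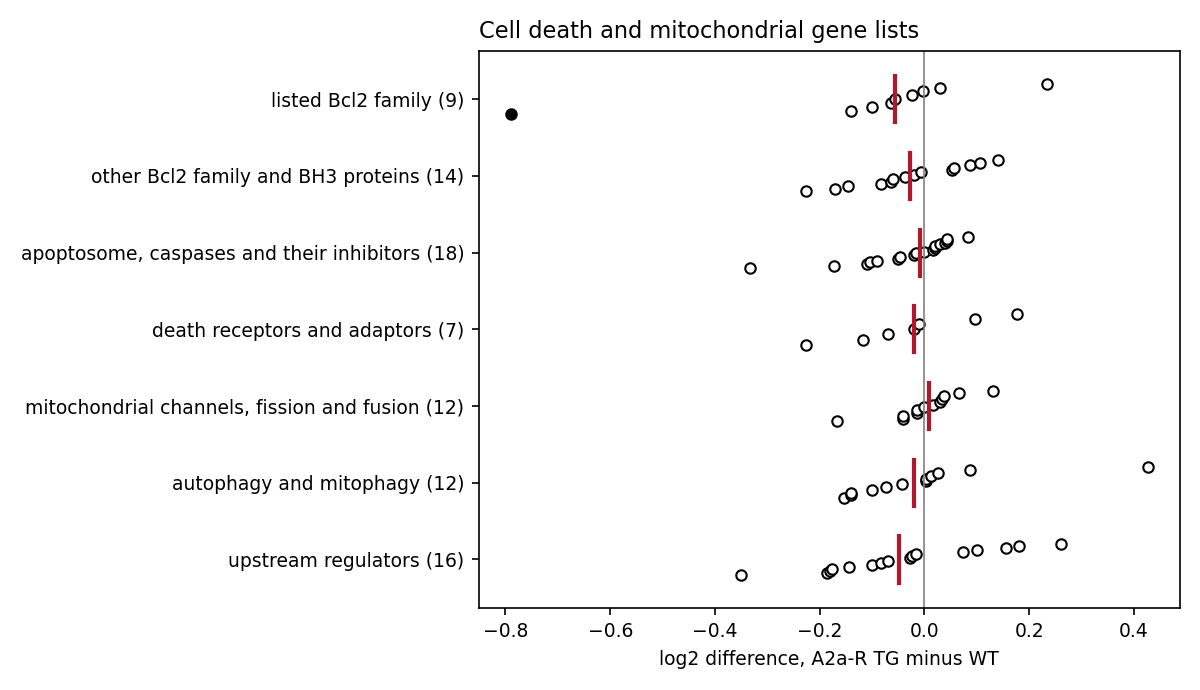
Log2 difference of A2a-R TG minus wild-type hearts for each gene (points, filled where the limma adjusted p is below 0.05) of the measured Bcl2 family genes and 6 lists of related genes, with the number measured in brackets and the median as a red line. Bcl2, at -0.79, is the filled point; the medians of all lists lie between -0.06 and 0.01.

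The genes beside Bcl2 in RefSeq order were looked at as neighbours on the chromosome. Phlpp1, a phosphatase gene next to Bcl2 on one side, was at -0.13 ± 0.06 (SE), with all TG hearts below the wild-type hearts, and Zcchc2 beyond it at -0.01 ± 0.06. On the other side Kdsr, an enzyme gene of sphingolipid synthesis, was at -0.06 ± 0.07 and Vps4b, an ATPase gene of membrane scission, at -0.01 ± 0.06. None of these 4 passed, with limma adjusted p from 0.382 to 0.976.

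Over the 6 hearts, the rows nearest to Bcl2 in their deviations from their own means were those of Etv5, Haus8 and Ube2ql1, at root mean square differences of 0.0992, 0.118 and 0.12 log2 units. Etv5, an ETS transcription factor gene, had 7.65, 7.56 and 7.77 in TG hearts and 8.60, 8.36 and 8.20 in wild-type hearts in that row. Like Bcl2, it was lower in every TG heart and highest in wild-type replicate 1. A second Etv5 row (10438626) was at -0.66 ± 0.11 (SE, limma adjusted p = 0.0355). In the nearest rows Etv5 and Ube2ql1 were called and Haus8 was not (limma adjusted p = 0.022, 0.0388 and 0.0982). These rows share the 6 arrays and the group difference with Bcl2, and were picked from 21789 rows for their likeness.

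Cell type markers were read beside the family. The 8 cardiomyocyte markers averaged a log2 value of 13.23 to 13.29 in TG hearts and 13.19 to 13.26 in wild-type hearts. Of these 4 were higher and 4 lower, and none was called, so the labelled tissue carried its defining genes in both groups. Ryr2 was at 0.25 with all TG hearts above the wild-type hearts (limma adjusted p = 0.149). The 9 macrophage markers averaged 8.50 to 8.58 in TG hearts and 8.16 to 8.32 in wild-type hearts, with 8 of 9 higher and Lgals3 called in limma. The 7 lymphocyte markers averaged 5.71 to 5.79 in TG hearts and 5.57 to 5.72 in wild-type hearts, with 5 higher and 2 lower; Il7r was called at 0.57, and the B cell marker Cd79a was at -0.35 with all TG hearts below the wild-type hearts (limma adjusted p = 0.137). The 6 smooth muscle and pericyte markers averaged 9.24 to 9.29 in TG hearts and 9.07 to 9.16 in wild-type hearts, with 4 of 6 higher. Of these only Acta2 was called, at 0.73, and without it the other 5 averaged 8.80 to 8.81 in TG hearts and 8.74 to 8.81 in wild-type hearts, which overlap (3 higher, 2 lower; chosen after seeing the data). The 4 atrial markers averaged 9.04 to 9.74 in TG hearts and 9.31 to 10.16 in wild-type hearts, which overlap. Of these only Nppa was called, at -1.18, and the groups overlapped for Myl4, Myl7 and Sln, at -0.17, -0.14 and -0.01. For fibroblasts the 6 markers averaged 9.98 to 10.04 in TG and 9.91 to 10.14 in wild-type hearts (2 higher, 4 lower). The 6 endothelial markers averaged 10.41 to 10.50 in TG and 10.49 to 10.53 in wild-type hearts, which overlap (1 higher, 5 lower). Of these Kdr was at -0.14 with all TG hearts below the wild-type hearts (limma adjusted p = 0.299). The 3 neutrophil markers averaged 5.56 to 5.68 in TG and 5.50 to 5.72 in wild-type hearts (1 higher, 2 lower). The macrophage average was apart between the groups, as Bcl2 and Bcl2l1 were, and so was the smooth muscle average through Acta2; their part in those differences was not tested.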

How the data were processed

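RNA from 6 whole hearts, 3 A2a-R transgenic and 3 wild type, was measured on 1 array each, from 100 ng of total RNA per the labels' protocols. The deposited values are log2 values; RMA and Partek made them, per the submitters' processing notes, with versions, settings and genome build not given in the sources used here. RMA is meant to equalise the distributions of the arrays, so a global change in RNA content is not visible, and no depth applies. The deposited arrays still differed in spread, with SDs of 2.05 to 2.07 in TG and 2.08 to 2.10 in wild-type hearts. Bcl2 was at -0.75 after a second quantile normalisation (limma adjusted p = 0.0495). The number of arrays limits the precision (median SE of a log2 difference 0.0731). Replicates are separate mice per the series' design text.

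Of 28853 rows, 21789 carried exactly 1 gene symbol in the platform annotation and were tested; 1621 carried several and 5443 none. Each row was fitted with limma 3.58.1 in R 4.3.3 (lmFit, eBayes, no covariate, transgenic minus wild type), with Benjamini-Hochberg adjustment across the tested rows and a threshold of 0.05. The code was tested on simulated data. The family genes, the lists and the rule for naming genes (every family gene, 2 genes of smallest p per list, the neighbours and the 3 rows most like Bcl2) were chosen with earlier results of these data known. Bbc3, Pmaip1, Creb1, Bag1, Rela, Pim3, Akt2, Stat3 and the single markers were named after their values were seen. Promoters came from RefSeq (GRCm38.p6). Alternatives covered normalisation, centring, dim rows, the variance prior, array weights, rows tested, the replicate number as a block, and each array left out.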

Additional observations from a re-analysis of the deposited data

How the results depend on the processing

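The Bcl2 difference was negative in all 14 alternative fits, from -0.91 to -0.625, which is also the range over the fits without 1 array; it was called in 8 of them (limma adjusted p 0.0104 to 0.117 over all 14). Its call was lost at the same -0.79 with the replicate number as a block (0.0757) and with all rows of the table tested (0.0619), and in 4 of the fits without 1 array, so that 0 family genes were called in these fits, and the count ran from 0 to 1 without 1 array. The fits without 1 array use fewer samples, and the cause of the other losses was not tested. No steady pairing by number was seen: deviations of equally numbered TG and wild-type hearts correlated at 0.155, -0.011 and -0.104 across rows. With 3 hearts per group these values constrain each other, so they cannot decide whether equal numbers mark a pairing. The block changed no other call among the 9 genes. The count of called rows in the table went down to 97 with the block, and up to 301 with array weights, 493 without the dimmest 40% of rows (which drops Bid) and 579 with a trended and robust prior, from 209. Of the 79 related genes 1 was called without the dimmest rows (Map1lc3a) and 4 with the trended and robust prior (Map1lc3a, Hif1a, Casp12 and Bag3), and 0 in the other fits run for them, leaving out 1 array included. Bcl2l1 stayed positive in its 14 fits, from 0.19 to 0.28, and uncalled (limma adjusted p 0.0864 to 0.387). Bcl2l11 turned to 0.03 after a second quantile normalisation, 0.017 with median centring and 0.0059 with array weights, and ran from -0.035 to 0.035 without 1 array; Bad ran from -0.0283 to 0.102 there. With 3 arrays a group, differences near 0.1 were of the size of their standard errors.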

Other observations

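The Bcl2a1 genes, relatives of Bcl2 that promote survival of white blood cells, had no row of their own. In 3 rows annotated to Bcl2a1a, Bcl2a1b, Bcl2a1c and Bcl2a1d together, every TG heart was above every wild-type heart, which held for 7.73% of the rows with 1 symbol. The 3 rows share the same 4 symbols, so they are not separate observations. In the first (10587683) the values were 6.15, 6.30 and 6.19 in TG hearts and 5.94, 5.97 and 5.93 in wild-type hearts, a log2 difference of 0.27 ± 0.06 (SE). The other rows (10587690 and 10595633) differed by 0.15 ± 0.07 and 0.19 ± 0.07. In row 10587690 the lowest TG value was 6.33 and the highest wild-type value 6.32. None passed in limma over all 28853 rows (adjusted p = 0.121, 0.367 and 0.277), and the 4 gene copies cannot be told apart. The macrophage marker average was also higher in each TG heart (8.50 to 8.58 in TG and 8.16 to 8.32 in wild-type hearts), and its part in these values was not tested.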
